A study of Mus musculus with 6 samples.

Results

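Cell cycle and proliferation genes were followed in subcutaneous tumours of S-180, a mouse sarcoma line, grown in athymic BALB/c nude mice. The members are a named list of 50 genes, grouped by their known roles. Of these, 49 were matched by symbol among the 20160 rows of the authors' deposited table, and Ttk was not analysed here. The members were split into 21 genes of DNA replication (G1/S) and 29 of mitosis (G2/M), of which 28 had a row. All mice received S-180 cells. In the 3 samples labelled model no treatment is named in the sources used here, and in the 3 labelled as treated with RGLS the mice had received RGLS before the cells. The series title ties RGLS to sporoderm-removed spores of the fungus Ganoderma lucidum. No dose, age or sex is given, nor whether each sample came from a separate mouse, so p-values measure only the spread between these samples. Tumour and host are both mouse, so their reads cannot be told apart. In bulk tissue, fewer dividing cells and less RNA per cell cannot be told apart either.

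A cell that commits to division switches on 2 waves of genes. In the first wave, cyclin E and the E2F transcription factors drive the genes that load the Mcm helicase on replication origins, supply nucleotides and copy DNA. In the second wave, FOXM1 and the MuvB complex drive the genes of cyclin B and its kinase, the mitotic kinases, the kinetochore and the spindle. The summed level of such genes is commonly read as a measure of how much of a tumour is dividing. The second wave is known for promoters with CCAAT boxes and a CHR element (TTTGAA), and the first for E2F sites.

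The promoters of 5 members are shown because they carry these elements and because the reads of these genes are described in detail below. They are RefSeq promoters of GRCm38.p6, from 250 bases before to 50 bases after the start of the gene, 5′ to 3′ on the strand of the gene. Mcm3 (chr1:20820263-20820562), Mcm6 (chr1:128359656-128359955), Mki67 (chr7:135716330-135716629), Top2a (chr11:99024140-99024439) and Cdc20 (chr4:118437294-118437593) all lie on the minus strand. Capitals mark, on either strand, the CHR element above, the CCAAT box, and an E2F core. The first E2F core searched for was TTCCCGC. The other E2F core searched for in the same way was TTGGCGC.
Mcm3: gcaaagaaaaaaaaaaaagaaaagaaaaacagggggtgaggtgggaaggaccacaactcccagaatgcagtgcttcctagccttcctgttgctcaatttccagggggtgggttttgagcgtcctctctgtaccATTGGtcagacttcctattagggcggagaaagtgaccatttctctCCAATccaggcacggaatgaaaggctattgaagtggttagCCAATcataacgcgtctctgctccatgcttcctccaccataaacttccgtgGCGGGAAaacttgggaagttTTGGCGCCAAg
Mcm6: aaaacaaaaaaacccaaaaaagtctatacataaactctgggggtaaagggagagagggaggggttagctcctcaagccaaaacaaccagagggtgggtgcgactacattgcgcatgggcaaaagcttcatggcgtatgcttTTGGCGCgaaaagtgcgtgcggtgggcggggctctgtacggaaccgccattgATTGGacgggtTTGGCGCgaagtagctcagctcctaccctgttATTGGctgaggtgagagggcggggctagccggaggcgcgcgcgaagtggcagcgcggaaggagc
Mki67: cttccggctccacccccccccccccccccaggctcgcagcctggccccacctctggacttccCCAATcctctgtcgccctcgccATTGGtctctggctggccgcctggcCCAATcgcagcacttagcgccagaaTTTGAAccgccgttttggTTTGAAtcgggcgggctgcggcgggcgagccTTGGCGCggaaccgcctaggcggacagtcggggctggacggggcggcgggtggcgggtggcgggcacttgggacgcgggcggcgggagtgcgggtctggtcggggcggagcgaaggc
Top2a: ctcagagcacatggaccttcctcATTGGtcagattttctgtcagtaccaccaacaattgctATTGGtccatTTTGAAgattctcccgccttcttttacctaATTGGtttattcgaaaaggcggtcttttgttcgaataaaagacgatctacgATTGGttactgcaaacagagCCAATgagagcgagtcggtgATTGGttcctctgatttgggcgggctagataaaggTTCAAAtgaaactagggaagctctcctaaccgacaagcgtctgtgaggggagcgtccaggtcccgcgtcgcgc
Cdc20: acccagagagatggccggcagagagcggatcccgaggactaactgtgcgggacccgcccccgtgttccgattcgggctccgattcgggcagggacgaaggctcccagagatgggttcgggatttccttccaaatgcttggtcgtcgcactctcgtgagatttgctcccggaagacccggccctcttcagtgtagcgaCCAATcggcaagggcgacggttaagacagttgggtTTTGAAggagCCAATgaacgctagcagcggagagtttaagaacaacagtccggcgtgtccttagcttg

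In Mcm3 and Mcm6 the capitals are CCAAT boxes and E2F cores, with 3 E2F matches in Mcm3 (of which the last pair overlap) and 2 in Mcm6. In Top2a and Cdc20 they are CCAAT boxes and CHR elements, and Mki67 holds all 3 kinds. A promoter was matched for 39 of the 50 listed genes. CHR elements were found in 68.2% of the 22 G2/M promoters and 11.8% of the 17 G1/S promoters, against 18.1% of the promoters of all 27025 genes. E2F cores were found in 47.1% of G1/S and 13.6% of G2/M promoters, against 6.94% of all. CCAAT was found in 64.7% and 81.8%, against 37.9% of all. An E2F core and a CCAAT box can overlap where both are read on opposite strands. A match describes these letters only, and none was tested as a site.

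The table held between 369453 and 458641 recovered reads per library, or 1.79% to 2.21% of the authors' library sizes, and all 49 members together held 5283 reads over the 6 libraries. Values are CPM, counts scaled by the authors' TMM library size, and 1 read was worth 0.0390 to 0.0575 CPM. A row is called overlapped where exons of a gene on the other strand cover at least 50 of its exonic bases, since no source used here states whether strand was used in the counting, and reads of both genes then cannot be told apart. Overlapped rows summed to 18303 CPM ± 750.1 (SD, n = 3) in model and 15096 ± 1208 in RGLS, and rows with no gene opposite to 2856 ± 137 and 3431 ± 381. Model 3 and RGLS 3 stood apart among rows with no gene opposite, each low within its group. The 12 housekeeping genes with no gene opposite, a list that includes Actb and Gapdh, summed to 13.0, 11.1 and 4.51 CPM in model and 21.2, 21.3 and 11.97 in RGLS. Of the listed markers, 11 of 12 mesenchymal genes had a row, summing to between 1.94 and 2.88 CPM in model and 3.83 and 7.75 in RGLS, with Pdgfrb and Thy1 at 0 reads in model. Skeletal muscle markers (13 of 15) summed to 4.604 to 5.76 and 10.003 to 11.7 CPM, with Myh1, Myh4, Tnnt3 and Myoz1 at 0 in model. Macrophage markers (11 of 12) summed to 15.7 to 17.1 and 12.9 to 13.9 CPM. Epidermal markers (4 of 6) summed to 3.28 to 5.48 and 2.40 to 3.12 CPM. Most of each of these sums came from 1 row, Csf1r with a mean of 12.3 CPM over the 6 libraries and Krt10 with 3.51. Itgam and Krt14 were at 0 in model, and Trp63 and Lor at 0 in RGLS. Both lists hold 1 overlapped row. Neutrophil (3 of 8), endothelial (6 of 8), erythroid (2 of 6) and B and NK cell markers (5 of 8) each stayed under 0.7 CPM in every library. The part of these cell types in the results below was not tested.

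Summed over all 49 members, the cell cycle rows had 44.0, 44.0 and 37.9 CPM in model and 43.6, 46.6 and 41.6 in RGLS, so the groups overlapped. Kif20a, a kinesin of the central spindle, alone held 35.6% of all member reads, and between 45.6% and 70.0% of the G2/M sum of a library. The G2/M sum was 29.5, 28.6 and 24.5 CPM in model and 26.9, 30.7 and 21.7 in RGLS, a ratio of means of 0.960. Without Kif20a it was 11.1, 10.2 and 7.36 CPM in model and 14.6, 15.99 and 8.27 in RGLS, a ratio of 1.36, and RGLS 3 lay below model 1 and model 2. Leaving out 1 row thus turned the direction of the G2/M ratio. On the log2 scale it went from -0.06 to 0.13 as a share of the table's reads, to 0.09 with the same median in every library and to 0.07 without RGLS 3.

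The G1/S sum, which does not contain Kif20a, was 14.6, 15.4 and 13.4 CPM in model and 16.7, 15.9 and 19.9 in RGLS. Each RGLS library lay above each model library, with means of 14.5 ± 1.02 and 17.5 ± 2.09 (SD, n = 3 each) and a ratio of 1.21. The high value of RGLS 3 came with 2 rows, Gins2 and Ccne1, that were high in that library only. There they had 7.10 and 1.22 CPM, and Gins2 is an overlapped row. The separation did not hold within either class of rows. Over the 16 G1/S members with no gene opposite, RGLS 3 had 5.47 CPM and model 1 had 6.16. Over the 5 overlapped ones, RGLS 2 had 7.03 CPM, below every model library. Without Kif20a, all members together had 24.0 ± 2.81 CPM in model and 30.5 ± 2.03 in RGLS, a ratio of 1.27 with no overlap between the groups. RGLS 3 again held the high Gins2 and Ccne1 values. The 12 overlapped rows of this sum had 15.4 ± 1.37 CPM in model and 15.9 ± 3.12 in RGLS, a ratio of 1.03. The groups overlapped there and over the 36 members with no gene opposite. These sums are descriptions of chosen genes and were not tested.

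**Figure D1:**
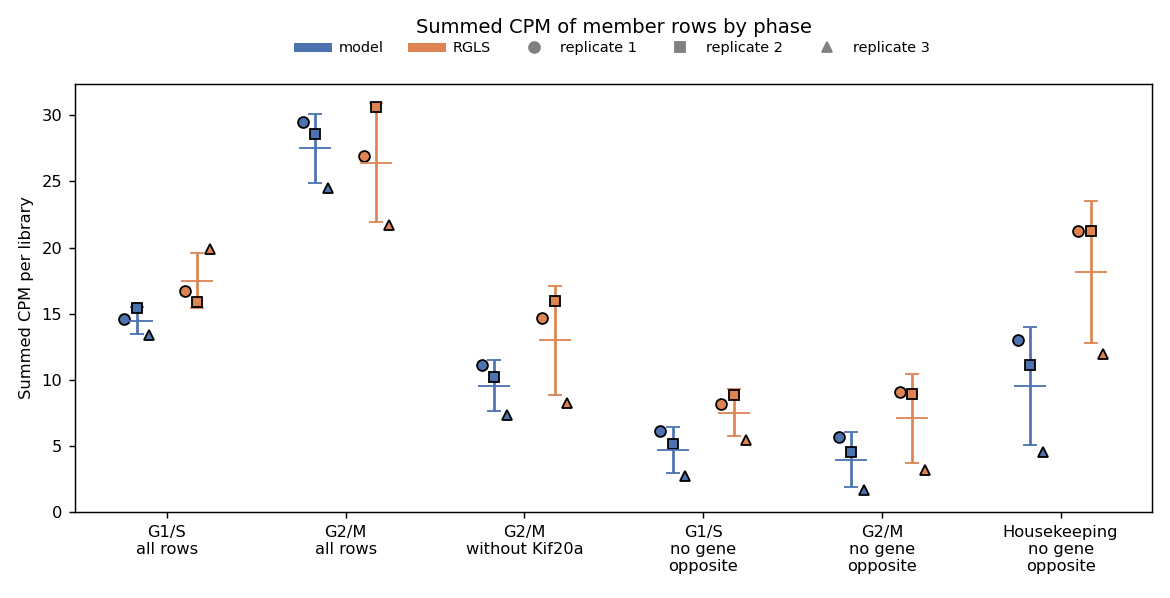
Summed CPM per library (vertical axis) of the G1/S and G2/M members, of G2/M members without Kif20a, and of the members and housekeeping genes with no gene opposite; points are libraries with a symbol for each replicate, horizontal lines are means and bars are SD (n = 3). Model 3 and RGLS 3 (triangles) are the lowest of their groups in all sets except the G1/S sum, where RGLS 3 is the highest at 19.9 CPM.

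The 13 overlapped members and the 36 with no gene opposite had different ratios. Overlapped members summed to 33.3 ± 1.09 CPM in model and 29.3 ± 3.31 in RGLS, a ratio of 0.880, against 0.825 for all overlapped rows of the table. Members with no gene opposite summed to 11.9, 9.67 and 4.39 CPM in model and 17.3, 17.8 and 8.65 in RGLS, a ratio of 1.69. RGLS 1 and RGLS 2 were the highest of the 6 libraries, and RGLS 3 lay below model 1 and model 2. The ratio was 1.60 for the 16 G1/S and 1.79 for the 20 G2/M members of this class. It was 1.20 for all rows with no gene opposite and 1.90 for the 12 housekeeping genes with no gene opposite, whose libraries were also low in model 3 and RGLS 3. Of the reads in rows with no gene opposite, the members held 0.299% ± 0.124 (SD, n = 3) in model and 0.417% ± 0.114 in RGLS, and the libraries overlapped.

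Of the 36 members with no gene opposite, 30 had a higher mean CPM in RGLS, 15 of 16 in G1/S and 15 of 20 in G2/M. Among all 13450 rows with no gene opposite, the share with a higher RGLS mean was 62.3%. Leaving out each library in turn gave 26 to 30 of the 36, and leaving out both model 3 and RGLS 3 gave 26, with 57% of all such rows. Model 3 was the lowest model library, or tied for it, in 29 of the 36, and RGLS 3 the lowest RGLS library in 26. In 4 of the 36 (Rrm2, Birc5, Ndc80 and Tpx2) every RGLS value exceeded every model value, and in 0 the reverse held, against 7.65% and 2.55% of all rows with no gene opposite. All 4 had at least 10 reads, and at that depth they were 4 of 29 members (13.8%), near the 14% of the 5915 rows with no gene opposite (4.21% in the reverse order). At that depth 24 of the 29 had a higher RGLS mean (82.8%), against 66.5% of rows. Of the 13 overlapped members, 5 had a higher mean in RGLS, and 3 (Kif20a, Nusap1 and Mcm7) had all RGLS libraries below all model libraries. Among all overlapped rows these shares were 45.7% and 10.2%. With at least 10 reads, 4 of 12 overlapped members had a higher mean and the same 3 were lower throughout. The shares of the 4524 overlapped rows at that depth were 40.5% and 13.4%.

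**Figure D2:**
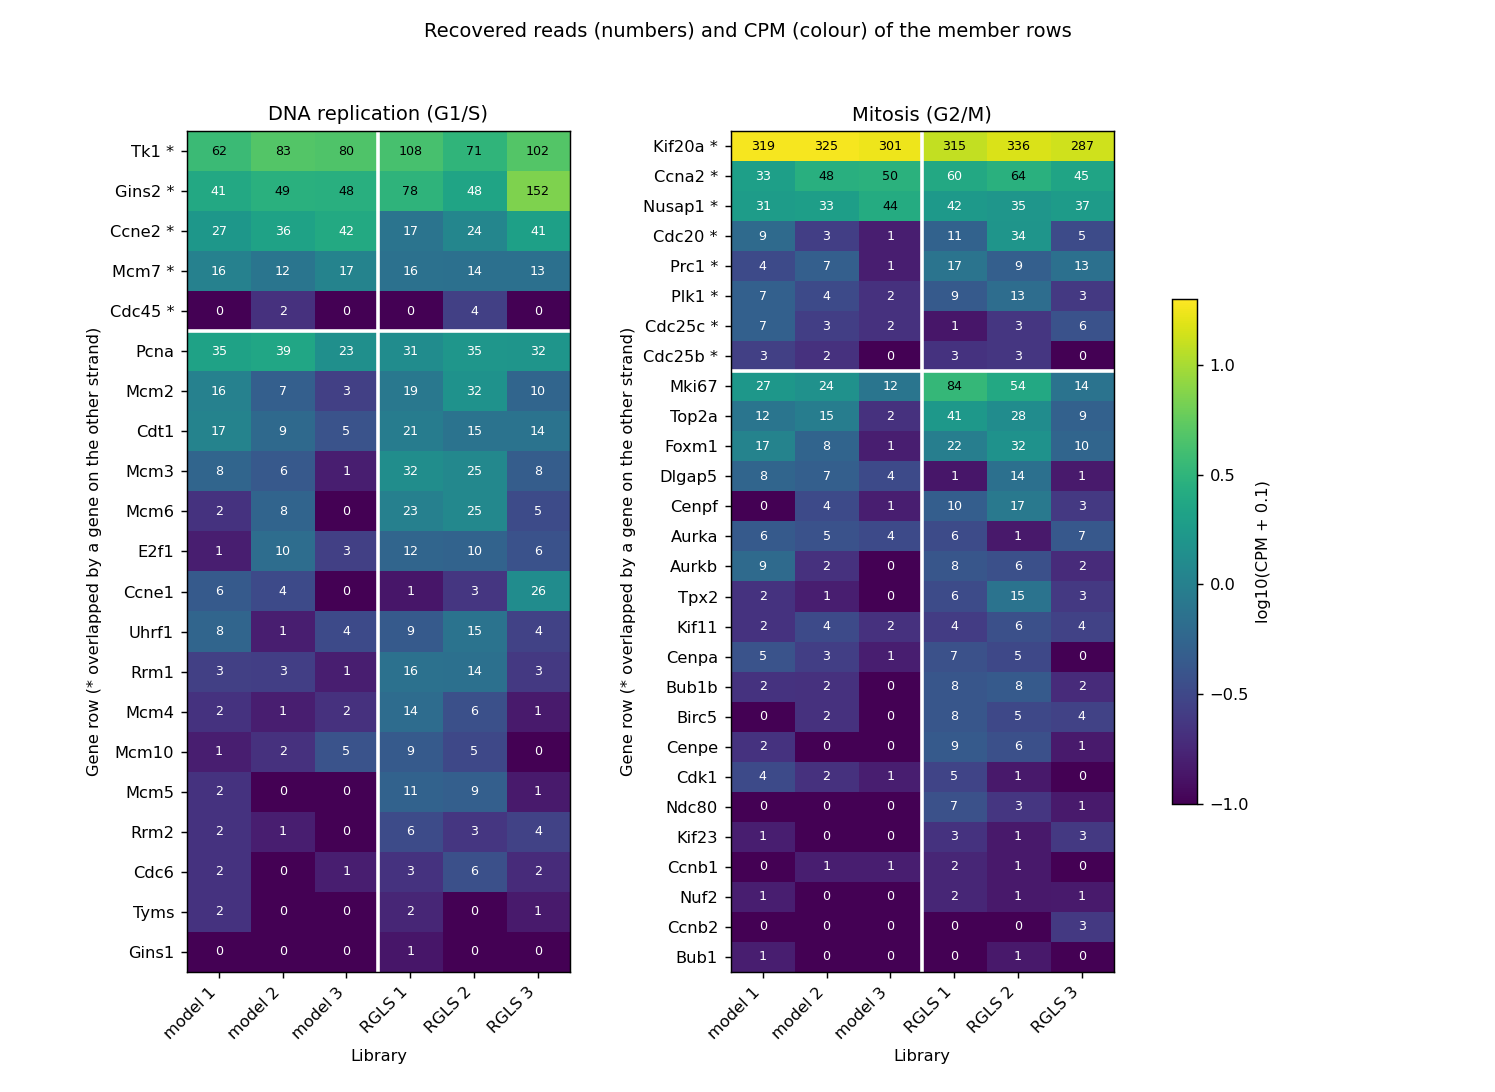
Recovered reads (numbers in the cells) and log10(CPM + 0.1) (colour) of the 21 G1/S and 28 G2/M member rows in the 6 libraries, with overlapped rows marked by a star and set above the white line. Kif20a, at 287 to 336 reads, stands above every other row, and model 3 and RGLS 3 are mostly dark among the rows with no gene opposite.

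Among the genes of the first wave, cyclin E and E2F came in different orders in the libraries. Ccne2, a cyclin that activates Cdk2 at the start of S phase, had 1.55, 2.04 and 2.40 CPM in model and 0.662, 1.05 and 1.92 in RGLS. The groups overlapped through RGLS 3, and limma gave a log2 fold change of -0.47 with SE 0.23 and adjusted p = 0.232, on the log2(CPM + 1) scale used for all such changes. Its row is overlapped over 609 bases by Ints8. Ccne1, the other cyclin E gene, had 6, 4 and 0 reads in model and 1, 3 and 26 in RGLS, so its RGLS reads were nearly all in RGLS 3. E2f1, the transcription factor of the G1/S switch, had 1, 10 and 3 reads in model and 12, 10 and 6 in RGLS.

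The Mcm2 to Mcm7 subunits form the ring helicase that is loaded on origins. The 5 subunits with no gene opposite, Mcm2 to Mcm6, summed to 1.73, 1.24 and 0.342 CPM in model and 3.86, 4.24 and 1.17 in RGLS, 58 reads against 221. RGLS 1 and RGLS 2 were above every model library and RGLS 3 was below model 1 and model 2. Mcm3 had 8, 6 and 1 reads in model and 32, 25 and 8 in RGLS, a ratio of 3.26 per library size with an exact 95% counting interval of 1.84 to 6.15. Mcm6 had 2, 8 and 0 reads in model and 23, 25 and 5 in RGLS, a ratio of 3.98 (interval 2.01 to 8.78). These are the helicase genes whose promoters are shown above. Mcm5 had 2 reads in model and 21 in RGLS (ratio 7.89, interval 1.93 to 69.4), and Mcm4 had 5 and 21 (3.16, 1.16 to 10.7). Mcm2 had 16, 7 and 3 reads in model and 19, 32 and 10 in RGLS, a ratio of 1.76 (interval 1.10 to 2.91). Mcm7 went the other way, with 0.921, 0.679 and 0.970 CPM in model and 0.623, 0.612 and 0.608 in RGLS. All its RGLS libraries lay below all its model libraries, and its row is overlapped by Ap4m1 over 321 bases and by Cops6 over 64.

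Apart from Gins2, the genes that load and start the helicase had few reads. Cdt1, a licensing factor, had 17, 9 and 5 reads in model and 21, 15 and 14 in RGLS, and Cdc6, its partner, had 3 and 11 in all. Gins2, a subunit of the GINS complex that completes the active helicase (chromosome 8, 120578633 to 120589304, minus strand), had 2.36, 2.77 and 2.74 CPM in model and 3.04, 2.10 and 7.10 in RGLS. Its RGLS mean rested on RGLS 3. Its log2 fold change in limma was 0.37 (SE 0.27, adjusted p = 0.432), and -0.03 without RGLS 3. Gse1 overlaps that row over 2758 bases. Gins1, another GINS subunit, had 1 read in all, Cdc45, the third part of that helicase, had 2 and 4 reads, and Mcm10, a replication initiation factor, had 8 and 14.

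Pcna, the sliding clamp of the polymerases, was among the first-wave rows with no gene opposite the one with most reads. It had 2.01, 2.21 and 1.31 CPM in model and 1.21, 1.53 and 1.496 in RGLS, with overlap between the groups and a limma log2 fold change of -0.23 (SE 0.20 and adjusted p = 0.522). It was also the only G1/S member with no gene opposite whose RGLS mean was lower. Reads of its pseudogene row Pcna-ps2, which can be exchanged with those of Pcna, were 1, 7 and 1 in model and 35, 21 and 7 in RGLS. Uhrf1, which reads hemimethylated DNA behind the fork, had 13 and 28 reads.

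Of the genes of nucleotide supply, Tk1, the thymidine kinase of the salvage pathway, had 3.57, 4.69 and 4.57 CPM in model and 4.21, 3.10 and 4.77 in RGLS. The groups overlapped, with a limma log2 fold change of -0.08 (SE 0.19 and adjusted p = 0.846), and Afmid overlaps the row over 83 bases. Its direction was positive after setting every library to the same median (0.02) and with TMM factors computed from the rows in edgeR (0.09). Rrm1, the large subunit of ribonucleotide reductase, had 3, 3 and 1 reads in model and 16, 14 and 3 in RGLS (ratio 3.54, interval 1.54 to 9.49). Rrm2, the small subunit, had 2, 1 and 0 reads in model and 6, 3 and 4 in RGLS, with every RGLS library above every model library in CPM. Tyms, the thymidylate synthase, had 2 and 3 reads, too few for a ratio.

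In the second wave, Mki67 (chromosome 7, 135689784 to 135716361, minus strand), the gene of the Ki-67 proliferation marker, had 1.55, 1.36 and 0.685 CPM in model and 3.27, 2.36 and 0.654 in RGLS. RGLS 1 and RGLS 2 were above every model library and RGLS 3 was below them all. Its log2 fold change in limma was 0.41 (SE 0.29, adjusted p = 0.412). Without RGLS 3 it was 0.81 and passed the threshold of 0.05 (limma adjusted p = 0.0447). Top2a, the topoisomerase that untangles chromosomes before they separate, had 0.691, 0.848 and 0.114 CPM in model and 1.60, 1.22 and 0.421 in RGLS, a ratio of pooled reads of 2.02 (interval 1.305 to 3.21). It showed the same order of libraries within RGLS as Mki67. Foxm1, the transcription factor of this wave, had 0.978, 0.452 and 0.0571 CPM in model and 0.857, 1.40 and 0.467 in RGLS, a ratio of 1.85 (interval 1.16 to 3.04), with overlap between the groups.

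The mitotic cyclins, their kinase and its phosphatases were nearly without reads among the rows used here, except Ccna2, whose row is overlapped. Rows with no gene opposite were low in general. Actb, the highest of the 12 housekeeping genes of that class, had a mean of 5.33 CPM. Few reads here are thus no measure of whether the tumours express these genes. Ccna2, the cyclin of S phase and mitotic entry, had 1.90, 2.71 and 2.85 CPM in model and 2.34, 2.80 and 2.10 in RGLS. Its groups overlapped, and its limma log2 fold change of -0.03 (SE 0.20 and adjusted p = 0.952) was positive after setting every library to the same median (0.08). Exosc9 overlaps the row over 510 bases. Ccnb1 and Ccnb2, the B-type cyclins, had 2 and 3 reads and 0 and 3 reads, too few for a ratio. Cdk1, the kinase they activate, had 7 reads in model and 6 in RGLS, and the phosphatases Cdc25b and Cdc25c had 5 and 6 and 12 and 10.

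Of the mitotic kinases and checkpoint genes, Cdc20, which activates the anaphase-promoting complex, had 9, 3 and 1 reads in model and 11, 34 and 5 in RGLS. Its ratio was 2.89 (interval 1.55 to 5.80), resting mostly on RGLS 2, and Elovl1 overlaps it over 53 bases. Birc5, survivin of the chromosomal passenger complex, had 0, 2 and 0 reads in model and 8, 5 and 4 in RGLS (ratio 6.39, interval 1.52 to 57.0). Aurkb, the kinase of the same complex, had 11 and 16 reads, a ratio of 1.09 (interval 0.477 to 2.61). Aurka, the kinase of the spindle poles, had 15 and 14, and Plk1, another mitotic kinase, 13 and 25. Bub1b, of the spindle checkpoint, had 2, 2 and 0 reads in model and 8, 8 and 2 in RGLS, and its relative Bub1 had 1 read in each group.

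The kinetochore genes had no gene opposite and few reads. Ndc80, which binds microtubules, had 0 reads in the 3 model libraries and 7, 3 and 1 in RGLS. With a floor of 3 reads set for the model group its ratio was 2.76, which leaves out the counting error of the RGLS reads. Cenpf, a large protein of the outer kinetochore, had 0, 4 and 1 reads in model and 10, 17 and 3 in RGLS (ratio 4.51, interval 1.73 to 14.9). Cenpe, a kinetochore kinesin, had 2 and 16 reads (6.01, 1.41 to 53.9). Nuf2, the partner of Ndc80, had 1 and 4, and Cenpa, the histone variant of centromeres, had 9 and 12 (ratio 1.002, interval 0.388 to 2.69).

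Among the spindle genes, Kif20a (chromosome 18, 34624613 to 34633277, plus strand, GRCm38) had 18.4, 18.4 and 17.2 CPM in model and 12.3, 14.7 and 13.4 in RGLS. All RGLS libraries lay below all model libraries, with means of 17.97 ± 0.688 and 13.5 ± 1.20 (SD, n = 3 each), a log2 fold change of -0.39 (SE 0.14) and a limma adjusted p of 0.105. Its reads were nearly level, at 319, 325 and 301 in model and 315, 336 and 287 in RGLS, and the RGLS libraries were larger. The ratio of pooled reads was 0.746 per library size (interval 0.681 to 0.818) and 0.853 per read of the table. Cdc23, a subunit of the anaphase-promoting complex, lies opposite over 1271 bases. Per kilobase of exon, Kif20a had 3.62 CPM over the 6 libraries, against 0.818 for the next member, Gins2, and a highest value of 0.678 (Pcna) among members with no gene opposite.

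Nusap1, a microtubule-bundling protein, had 1.78, 1.87 and 2.51 CPM in model and 1.64, 1.53 and 1.73 in RGLS, with no overlap, a log2 fold change of -0.21 (SE 0.19) and a limma adjusted p of 0.544. Oip5 overlaps it over 172 bases. Tpx2, which activates Aurora A on the spindle, had 2, 1 and 0 reads in model and 6, 15 and 3 in RGLS (ratio 6.01, interval 1.83 to 31.2). Prc1, the bundling protein of the central spindle, had 4, 7 and 1 reads in model and 17, 9 and 13 in RGLS (ratio 2.44, interval 1.25 to 5.13), with Rccd1 over 911 bases of its row. Kif11, the motor that separates the poles, had 8 and 14 reads, and Kif23, a motor of cytokinesis, 1 and 7. Dlgap5, which stabilises spindle microtubules, had 8, 7 and 4 reads in model and 1, 14 and 1 in RGLS. Of the 28 second-wave rows, 18 had a higher mean in RGLS and 10 a lower one, so the directions of the means differed. The higher ones were 15 of 20 with no gene opposite and 3 of 8 overlapped, beside 62.3% and 45.7% of all rows of these classes. Kif20a, Nusap1, Dlgap5, Cdk1 and Aurka were among the lower, and Tpx2, Prc1 and Kif23 among the higher. Of those named, the counting intervals of Kif20a, Tpx2 and Prc1 excluded a ratio of 1, and the others did not. Among the rest of this wave, those of Mki67, Top2a, Foxm1, Birc5, Bub1b, Cdc20, Cenpe and Cenpf lay above 1. Kif20a was the only second-wave row with an interval below 1. These intervals cover counting error only.

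**Figure D3:**
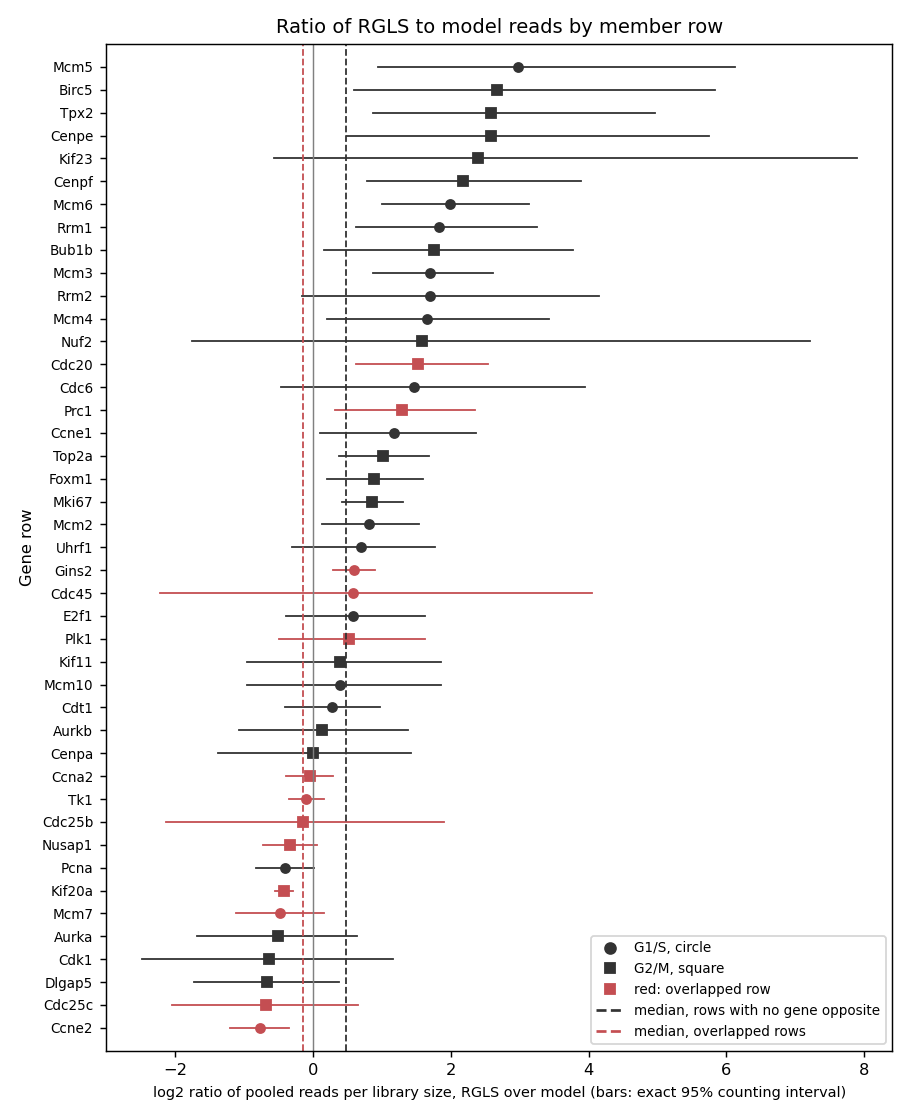
Log2 ratio of pooled reads per library size, RGLS over model (horizontal axis), for the member rows with a ratio; bars are exact 95% counting intervals, circles are G1/S and squares G2/M members, red marks overlapped rows and dashed lines are the medians of all rows of each class with at least 10 reads. Members with no gene opposite lie mostly to the right of 0, as does the median of their class at 0.48, and Kif20a has the narrowest interval.

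Of the 8 members with at least 1 CPM in at least 3 libraries (Tk1, Gins2, Pcna, Ccne2, Mki67, Ccna2, Nusap1 and Kif20a), limma called 0, against 1.47% of all 2319 rows tested. At an unadjusted p under 0.05 there was 1, Kif20a, against 23.3% of all rows tested. On the recovered reads edgeR called 0 of 13 members (1 at an unadjusted p under 0.05) and DESeq2 0 of 16 (3 at that level). The background of calls was 1.33% for edgeR and 1.84% for DESeq2, and 19.1% and 14.9% of rows had an unadjusted p under 0.05. In edgeR on every row with at least 10 reads, 41 members could be tested and 0 were called, against 1.5% of 10637 rows, and the smallest adjusted p was 0.176, for Mcm3 (log2 fold change 1.65). At an unadjusted p under 0.05 there were 11 of the 41, which is 26.8% against 14.1% of all rows. Of the 11 members, 10 were higher (Ndc80, Mcm3, Mcm6, Tpx2, Mcm5, Cenpf, Rrm1, Cdc20, Gins2 and Mki67) and 1 lower (Kif20a). The 14.1% is over both directions and both classes of rows. No gene lies opposite 29 of the 41 members and 5915 of the 10637 rows, so the shares are not matched by class. The median log2 fold change over the 8 tested members was -0.14, beside -0.17 over all rows tested. That shift differed by class, at -0.19 over the 1799 overlapped rows tested and 0.01 over the 484 with no gene opposite. Of the 8, Mki67 and Pcna have no gene opposite, and the changes of the others stand on the shift of overlapped rows. With at least 10 reads, the median log2 ratio of pooled reads was 1.02 over 29 members with no gene opposite, beside 0.48 over the 5915 such rows of the table. It was -0.12 over 12 overlapped members, beside -0.15 over 4524 such rows. The counting intervals above leave out the spread between libraries, which the tests include.

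In 8 of 10 tested pairs the row opposite had a higher mean CPM than the member row, Gse1 and Afmid being the exceptions. Of 14 opposite rows, 10 were tested and 0 were called by limma, edgeR or DESeq2 (2 at an unadjusted p under 0.05 in each). Exosc9, an exosome subunit opposite Ccna2, had 75.6 ± 3.75 CPM in model and 67.6 ± 6.05 in RGLS, and Rccd1, opposite Prc1, had 53.1 ± 3.16 and 40.6 ± 7.71 (limma adjusted p = 0.116). Beside them, Ccna2 had 2.49 ± 0.516 and 2.41 ± 0.352 CPM. Cdc23, opposite Kif20a, had 20.6, 19.1 and 23.7 CPM in model and 14.8, 15.4 and 14.5 in RGLS, with no overlap and a limma log2 fold change of -0.47 (SE 0.13 and adjusted p = 0.0707). Both rows of this locus thus had lower values in every RGLS library, in a class of rows of which 24.4% of those tested did so.

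At the other loci the opposite rows had lower levels than these. Gse1, opposite Gins2, had 2.61 ± 0.154 and 1.80 ± 0.346 CPM with no overlap (log2 fold change -0.37, limma adjusted p = 0.249), and lacked the high RGLS 3 value of Gins2. Ints8, opposite Ccne2, had 5.82 ± 1.37 and 5.16 ± 1.32, and Afmid, opposite Tk1, 2.05 ± 0.571 and 1.73 ± 0.438. Ap4m1 and Cops6, both opposite Mcm7, had 8.07 ± 0.691 and 7.47 ± 1.17, and 6.60 ± 0.629 and 6.98 ± 1.25. Elovl1, opposite Cdc20, had 1.29 ± 0.0837 and 1.11 ± 0.643, and Spef1, opposite Cdc25b, 3.20 ± 0.177 and 2.63 ± 0.780. The median log2 fold change over the 10 was -0.17, as over all rows tested.

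**Figure D4:**
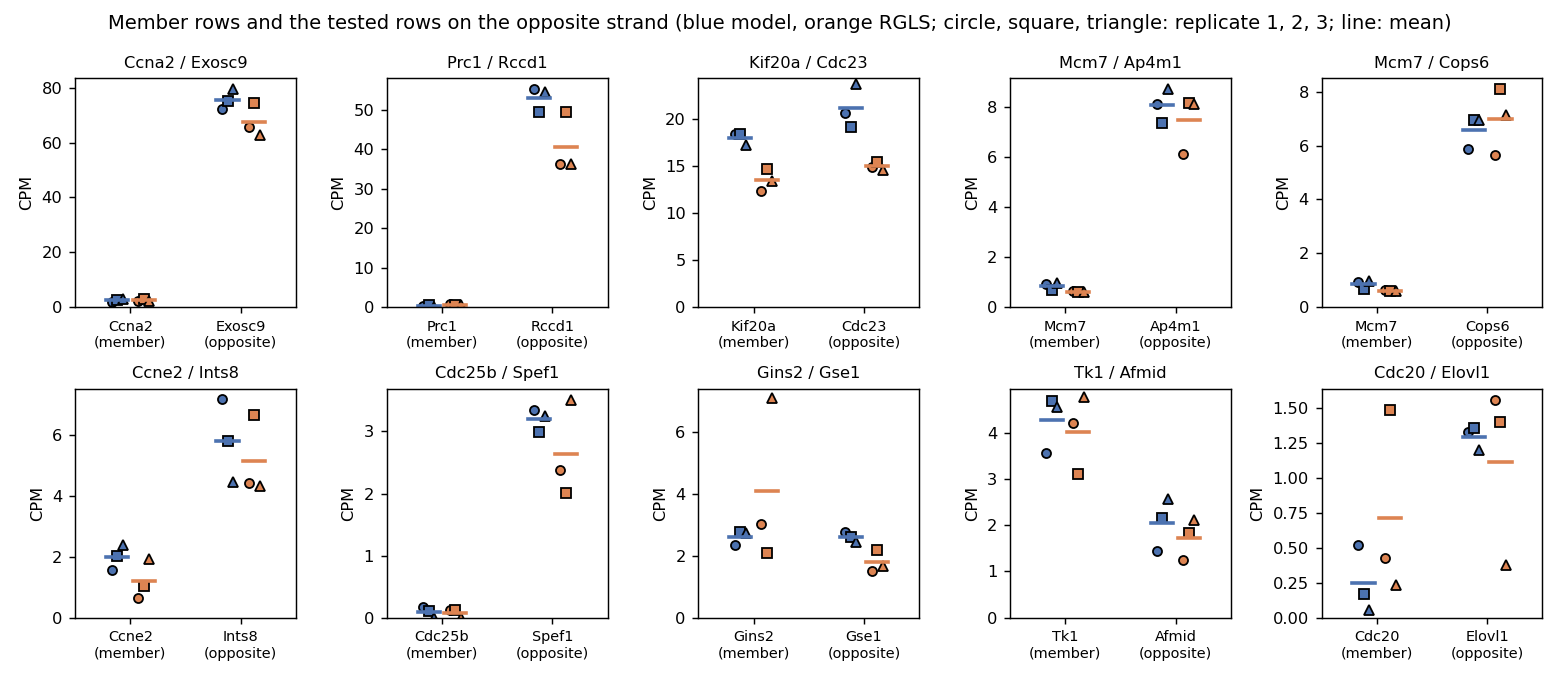
CPM (vertical axis, a scale for each panel) of member rows and of the tested rows on the opposite strand at 10 pairs, blue for model and orange for RGLS, with a symbol for each replicate and a line at the mean. At Kif20a and Cdc23 both rows are lower in all RGLS libraries, while Exosc9 and Rccd1 stand far above Ccna2 and Prc1.

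Around the members, 3 lists of other cell cycle genes gave 17 tested rows, of which limma called 1, Ube2c, higher. Ube2c, an E2 enzyme of the anaphase-promoting complex, had 3, 2 and 0 reads in model and 42, 41 and 40 in RGLS (log2 fold change 1.34, SE 0.18, limma adjusted p = 0.000694). It reached 1 CPM only in the 3 RGLS libraries, at 1.64, 1.79 and 1.87 CPM. It thus passed the filter of the fit only through the group where it is high, which limits what the call can show. Tnnc2, which encodes a fast-muscle troponin, lies opposite the Ube2c row, so reads of that row cannot be assigned to a cell cycle gene. The skeletal muscle sum was higher in every RGLS library, but 6 of its 13 rows are overlapped too. That sum therefore cannot show where the Ube2c reads came from, and their source was not tested. In G1 control 6 of 25 rows were tested and 0 called. Cdk4, the cyclin D kinase (opposite Tspan31), had 50.7 ± 7.24 and 38.0 ± 3.58 CPM with no overlap (limma adjusted p = 0.103). Myc, the growth transcription factor with no gene opposite, had 1.90, 1.53 and 0.913 CPM in model and 2.96, 4.37 and 1.87 in RGLS, with overlap at RGLS 3 (log2 fold change 0.71, limma adjusted p = 0.105, and 0.0246 without RGLS 3, when it was called). Ccnd3, a cyclin D gene on an overlapped row, had a log2 fold change of -0.54 (limma adjusted p = 0.173). In other replication genes 7 of 43 rows were tested and 0 called, with log2 fold changes of -0.27 for Rfc5 and 0.21 for Rfc2, both of the clamp loader, and -0.25 for Chaf1a, a histone chaperone. In other mitosis genes 4 of 60 were tested, and Pkmyt1, which inhibits Cdk1, and Ncapg, a condensin subunit, had -0.33 and -0.26. Of the rows of these lists with no gene opposite, 68.8% of 16, 67.9% of 28 and 63.8% of 47 had a higher RGLS mean, near the 62.3% of all such rows.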

How the data were processed

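RNA-seq of 6 tumour samples, 3 model and 3 RGLS, was used, and groups and columns were matched by the labels. The authors deposited TMM-scaled CPM, and Bowtie2, HTSeq and mm10 are named in the submitters' processing notes, with roles, versions and strand setting not given in the sources used here. All values were whole multiples of a column's smallest value (tolerance 0.001 of a read), so reads and library sizes were recovered. Rows were annotated with GENCODE vM21 (GRCm38), which held 19732 of 20160 symbols, and 31.8% of those rows were overlapped.

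RGLS was compared with model in R 4.3.3 by a 2-sided limma 3.58.1 fit with an intensity trend. It took log2(CPM + 1) of the rows that reached 1 CPM in 3 or more libraries, with Benjamini-Hochberg adjustment and a threshold of 0.05. On recovered reads, DESeq2 1.42.0 and edgeR 4.0.16 were alternatives, as were other pseudocounts, filters and scalings, a replicate block and leaving out each library. The tests were checked on simulated data, in which only rows with a mean of at least 1 CPM were changed. That check does not cover rows with fewer reads or the low values of model 3 and RGLS 3. Intervals are exact 95% intervals on pooled reads and, like the floor of 3 reads, cover counting error only. Members and lists were chosen with earlier results of these data known. Values in every library are given for members that passed the filter and for the 6 with most reads in each phase, and the library values of other members were picked after they were seen. Of the other lists, called rows and the 3 with the smallest p were named.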

Additional observations from a re-analysis of the deposited data

How the results depend on the processing

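The count of members called was 0 in all alternatives except without RGLS 3, where it was 1 (Mki67), so leaving out 1 library gave 0 to 1. The count of opposite rows called was 0, and 1 with a replicate block (Cdc23, log2 fold change -0.47, limma adjusted p = 0.0333). It was 0 to 0 when a library was left out. The count of other cell cycle genes called was 1, and it was 2 with the block (Ube2c and Myc, the latter with limma adjusted p = 0.0238) and 0 with a filter of 5 CPM. It was 0 to 1 without 1 library, being 0 without RGLS 1 or RGLS 2, while without RGLS 3 the row called was Myc, since Ube2c misses the filter without any of these 3. Over the rows tested, deviations of same-numbered libraries had correlations of 0.00441, -0.00556 and 0.378, and those of other pairs -0.301 to 0.331. The numbers were thus not taken as pairs. Most of those rows were overlapped, so the check says little of rows with no gene opposite, where model 3 and RGLS 3 were low.

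The log2 ratio of the G1/S sum was 0.27. It was 0.46 as a share of the table's reads, 0.68 over members with no gene opposite and 0.13 as a mean of log2(CPM + 1), and 0.17 to 0.34 without 1 library. That of the G2/M sum was -0.06, with 0.44 without Kif20a and 0.84 over members with no gene opposite, and -0.18 to 0.07 without 1 library. Without Kif20a it ran from 0.26 to 0.68 when a library was left out. That of all members was 0.06, with 0.25 as a share of reads, 0.21 with the same median in every library, 0.34 without Kif20a and 0.75 over members with no gene opposite (0.44 to 1.05 without 1 library for the last). It was 0.00 to 0.10 without 1 library. The replicate block gave 0.27, -0.07 and 0.07 for the G1/S, G2/M and full sums.

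Several uncalled rows changed sign. Tk1 had 0.09 and Ccna2 0.14, Exosc9 0.02 and Ap4m1 0.06 in edgeR with TMM factors computed on the rows. With the same median in every library Tk1 had 0.02 and Ccna2 0.08. With medians matched separately for overlapped rows and the rest, added after the data were seen like edgeR on rows with at least 10 reads, Tk1 had 0.10, Ccna2 0.15, Exosc9 0.02, Ints8 0.03, Elovl1 0.00, Ap4m1 0.07 and Afmid 0.02. DESeq2 with its own size factors gave Ccna2 0.02. Leaving out a library gave -0.03 to 0.66 for Gins2, -0.18 to 0.06 for Tk1, -0.15 to 0.05 for Ccna2, -0.34 to 0.11 for Elovl1, -0.17 to 0.02 for Ap4m1 and -0.04 to 0.19 for Cops6. The cause was not tested. Depth was low, with under 60 reads in 33 of 49 members.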
